A study of Mus musculus with 71 samples.

Results

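The nuclear genes for the subunits of the 5 oxidative phosphorylation complexes were examined in mouse embryonic stem cells (mESCs) with the normal amount of the linker histone H1 or with part of it removed. The genes were chosen by symbol: Ndufa, Ndufb, Ndufc, Ndufs and Ndufv for complex I, Sdha to Sdhd for complex II, Uqcr for complex III, Cox4 to Cox8 for complex IV and Atp5 for complex V, without assembly factors. Ndufa4 and its paralog Ndufa4l2 were placed in complex IV. A gene was kept if it was protein-coding and had 1 RefSeq accession in the RNA-seq tables, which gave 71 of the 24138 genes with a symbol there: 30 of complex I, 4 of complex II, 8 of complex III, 17 of complex IV and 12 of complex V. Another 14 subunit genes had several accessions and were left out, and for 13 of these the accessions summed to a mean normalized count under 10 (Ndufv3 was the exception). The study asked how H1 acts on the histone mark H3K27me3 and on gene expression. WT cells were the mESC line R1, and H1-TKO cells were mESCs in which CRISPR/Cas9 with 1 guide against a sequence shared by H1c, H1d and H1e had disrupted these genes. Per the methods the edited cells were picked as single-cell clones, and the number of clones behind the libraries is not given in the sources used here. Both were grown on gelatin with LIF, and poly(A) RNA-seq was done on 2 libraries per genotype. The titles of the 4 samples give the opposite genotype to the names inside the tables. The genotype of the tables was used, because each library equalled the column of that genotype in the per-library source values in 1999 of 1999 rows compared (relative tolerance 0.001). Every direction given here would be reversed under the titles.

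Oxidative phosphorylation makes ATP in mitochondria. Complexes I and II take electrons from NADH and succinate, complex III passes them on to cytochrome c, complex IV gives them to oxygen, and complex V, the ATP synthase, uses the proton gradient that complexes I, III and IV build up. Most subunits are encoded in the nucleus, by genes with short transcripts, while the core of every complex but II also holds subunits from mitochondrial DNA, which were not examined here. Pluripotent stem cells of the mouse use both glycolysis and oxidative phosphorylation.

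Values are read counts that the authors divided by a size factor of each library, called normalized counts here. The libraries held 10538507 and 8292007 assigned reads in WT and 6951619 and 7346122 in H1-TKO, and 1 read is worth 0.776 to 1.10 normalized counts. H1f2 (H1c) had normalized counts of 11.6 and 56.7 in WT against 18.7 and 7.4 in H1-TKO, H1f3 (H1d) had 3.9 and 41.4 against 1.1 and 0.0, and H1f4 (H1e) had 5.4 and 19.6 against 0.0 and 2.1. The edit need not remove the transcript, so these low values do not check the genotype. The mESC markers Sox2, Pou5f1, Zfp42 and Dppa5a were high in every library and the list of 8 summed to 23633 and 33058 in WT against 40132 and 40849 in H1-TKO, with 3 of 6 accessions tested higher and 1 lower, while Nanog and Esrrb, which have several accessions, were at or near 0. Of 4 trophectoderm markers, Krt8 had 1438 and 314 in WT against 72.7 and 113 in H1-TKO, and the summed list was 3755 and 826 in WT and 431 and 530 in H1-TKO, with Cdx2 at 26.4, 0.0, 3.3 and 0.0. Elf5 and Sox17 were at or near 0 too, but have several accessions as Nanog and Esrrb do, so these values do not show low expression. Fibroblast feeder markers summed to between 479 and 576 in all libraries, with Thy1 higher and Acta2 and Col1a1 lower in H1-TKO and Lum at or near 0. Primitive endoderm markers summed to between 24 and 61, but only 2 of the 5 have 1 accession, so this sum does not show low expression. Markers of 2-cell-like cells summed to 93 and 147 in WT and 182 and 194 in H1-TKO. All 3 of their accessions tested had positive log2 fold changes (median 1.16), and 0 passed limma's adjusted p. Whether a share of other cells moved the subunit genes was not tested.

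In the promoters, motifs of 3 factors that are known for their role at genes of oxidative phosphorylation were searched on both strands: CCGGAAG of the ETS family (which includes GABP), GCGCANGCG of NRF1 and AANATGGC of YY1. RefSeq (GRCm38.p6) promoter windows, from 250 bases before to 50 after a start, were found for 57 of the 71 genes, in 59 windows. CCGGAAG stood in 25.4% of the member windows against 8.86% of all 32851 windows, GCGCANGCG in 30.5% against 6.25%, and AANATGGC in 20.3% against 6.05%. A box with the letters CCAAT stood in 39.0% of the member windows and in 37.4% of all. At least 1 of the first 3 motifs was in 64.4% of the member windows against 18.6% of all, and no matches of different motifs overlapped in a member window. A match describes letters and is not evidence of a bound site.

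Among the 14 genes called below, 10 had a window and 6 of these held at least 1 of the 3 motifs. Their sites are shown as 30 bases in the direction of the gene, with the motif or its reverse complement in capitals and with places in GRCm38.p6, since these are genes on which the comparison turns:
Uqcr11, ETS, chr10:80406869-80406898, minus strand: ttctctcctccCCGGAAGtagatgtcaatg
Uqcr11, NRF1, chr10:80406807-80406836, minus strand: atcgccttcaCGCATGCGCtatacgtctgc
Atp5k, ETS, chr5:108434369-108434398, minus strand: cctcagttgagCTTCCGGcgcgaaggtcac
Atp5k, NRF1, chr5:108434430-108434459, minus strand: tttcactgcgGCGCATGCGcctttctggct
Ndufa5, NRF1, chr6:24527697-24527726, minus strand: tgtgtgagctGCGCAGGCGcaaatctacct
Ndufa3, YY1, chr7:3617384-3617413, plus strand: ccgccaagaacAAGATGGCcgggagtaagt
Ndufb5, YY1, chr3:32736827-32736856, plus strand: tgcccttactaAACATGGCcgctcccacgg
Uqcrc1, NRF1, chr9:108936644-108936673, plus strand: ttccttacagCGCTTGCGCctcagactccg
Genes that rose and genes that fell in H1-TKO both appear in this list. The median log2 fold change was -0.43 over the 15 tested members with CCGGAAG and -0.05 over the 40 with a window but without it, -0.09 and -0.10 for GCGCANGCG, and -0.05 and -0.14 for AANATGGC. These medians were not tested against each other.

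In WT the subunit genes together made up 1.26% and 1.33% of all normalized counts, and in H1-TKO 1.55% and 1.58%. Atp5b and Atp5a1, which encode the beta and alpha subunits of the catalytic head of the ATP synthase, held 38.1% to 39.4% of these counts in WT and 44.1% to 44.4% in H1-TKO. Without Atp5a1 the other subunit genes made up 1.06% and 1.13% in WT and 1.19% and 1.22% in H1-TKO. The totals behind these shares were 8175921 and 9044618 normalized counts in WT but 7659265 and 7737057 in H1-TKO. As summed normalized counts, the subunit genes had 102843 and 119917 in WT and 118920 and 122302 in H1-TKO. Without Atp5a1 they had 86969 and 102397 against 91509 and 94484, so the H1-TKO sums lay between the WT sums. In bulk RNA, fewer cells of a type and less RNA per cell cannot be told apart.

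Per kb of transcript, as the mean of the 4 libraries, and among the 67 genes whose mean count reached 10, Atp5b was the highest of complex V at 13600 normalized counts per kb and Cox8a the highest of complex IV at 6250. Uqcr10 led complex III at 4130, Ndufb8 complex I at 2280 and Sdhb, the iron-sulfur subunit of succinate dehydrogenase, complex II at 1390. At the other end stood Ndufa12 (16.1) in complex I, Sdhc (260) in complex II, Uqcrb (438) in complex III, Cox7b2 (24.6) in complex IV and Atp5l (51.6) in complex V. Subunits of a complex are assembled in fixed numbers, yet among these 67 genes the level per kb spanned 142-fold in complex I and 264-fold in complex V.

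The low end was shared with genes that have near-identical copies elsewhere in the genome. The authors kept only uniquely mapped reads, and 13 of the 71 transcripts matched another place in the genome (NCBIM37) over at least 80% of their length at 95% identity or more, while 11 did so over a smaller part. Their median level was 197 and 336 normalized counts per kb, against 1010 for the 47 without such a match. Ndufs5 is the clearest case. It had normalized counts of 0.8, 0.0, 0.0 and 0.0, while its annotated pseudogene Ndufs5-ps had 396 and 625 in WT and 420 and 441 in H1-TKO, so that reads of the gene and the copy cannot be told apart. Among genes without such a match the lowest were Ndufa5 (406 per kb) in complex I, Uqcrfs1 (1320) in complex III and Atp5e (204) in complex V. The level of Atp5l, Atp5h, Atp5md, Atp5g2 and Ndufa12 is therefore uncertain.

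Several subunits have a second gene used in particular tissues. Of the heart and muscle forms, Cox6a2 and Cox8b were at or near 0, and Cox7a1 was not. Cox6a2 had 0.0, 0.0, 1.1 and 0.0 normalized counts against 2324 to 3052 of the general form Cox6a1. Cox8b had 0.8, 0.0, 2.2 and 0.0 against 2480.3 to 4628 of Cox8a. Cox8c, a form known from testis, had 0.8 and 4.4 in WT and 8.8 and 17.9 in H1-TKO, too low to be tested. Cox7b2 stayed between 10.1 and 16.4 while Cox7b was between 1618 and 1861.

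Cox7a1, the muscle form of its subunit, had a higher level than these second forms. It had 95.4 and 150.5 normalized counts in WT against 95.9 and 104.3 in H1-TKO, while the general form Cox7a2 had 832 and 856 against 304 and 249.6. Per kb the WT means were 338 for Cox7a1 and 1120 for Cox7a2, and in H1-TKO 275 and 367. Cox7a2 thus came close to Cox7a1 in H1-TKO by its own fall, and the difference in Cox7a1 did not pass the test (log2 fold change -0.26, SE 0.31, limma adjusted p = 0.578). Cox4i2, the second form of Cox4, had 22.5 and 24.0 in WT and 39.7 and 41.1 in H1-TKO (log2 fold change 0.77, SE 0.43, limma adjusted p = 0.225), and no value can be set beside it because Cox4i1 was among the genes with several accessions.

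Of the 71 genes, 67 had a mean normalized count of at least 10 and were tested in a limma fit over all 11113 accessions that passed this filter (Cox6a2, Cox8b, Cox8c and Ndufs5 did not). In H1-TKO mESCs 6 subunit genes were higher and 8 were lower at an adjusted p under 0.05. That is 8.96% and 11.9% of the genes tested, near the background of 9.84% and 10.7% of all accessions. The higher genes include Ndufa4l2, which passed the filter only through its H1-TKO libraries. The median log2 fold change of the 67 genes was -0.06, against -0.03 over all accessions. The libraries of the genotypes did not overlap for 19 genes that were higher and 27 that were lower in H1-TKO, while over all accessions 32.2% and 34.2% did not overlap in these directions. These shares lie near the background, so the counts say nothing particular of the subunit genes as a set, and the changes below are those of single genes.

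The libraries of a genotype lay close together for most subunit genes, with a median absolute log2 difference of 0.26 between the WT libraries and 0.11 between the H1-TKO libraries. The median of WT replicate 2 minus WT replicate 1 was 0.17 in log2 units. Only Ndufab1 and Cox7c were 2-fold or more apart in WT, and only Ndufa12, Ndufa4l2 and Cox7c in H1-TKO. Genes just inside the threshold were Ndufa4l2 (limma adjusted p = 0.0486) and Uqcrc1 (0.0490), and those just outside it were Ndufb7 (0.0567), Ndufs3 (0.0597) and Sdhb (0.0641). With 1 library left out, a genotype has 1 library, which is assumed to vary like the pair of the other genotype, and over all accessions the WT pair was further apart than the H1-TKO pair (median absolute log2 difference 0.35 against 0.16). The number of calls moved over all accessions too: 603 and 585 accessions were called without H1-TKO replicate 1 and replicate 2, and 5468 and 4950 without WT replicate 1 and replicate 2, against 2282 with all libraries. Of the subunit genes 14 were called with all libraries, 4 and 5 without an H1-TKO library, and 40 without either WT library. Cox7a2, Ndufa5, Ndufab1 and Uqcr11 were called with either H1-TKO library left out, Atp5k with replicate 2 left out, and the other 9 of the 14 in neither case, although the log2 fold change of Ndufa10, for example, was then 0.58 and 0.53 against 0.56. Without WT replicate 1, 15 genes were higher and 25 lower, and without WT replicate 2, 23 were higher and 17 lower.

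**Figure D1:**
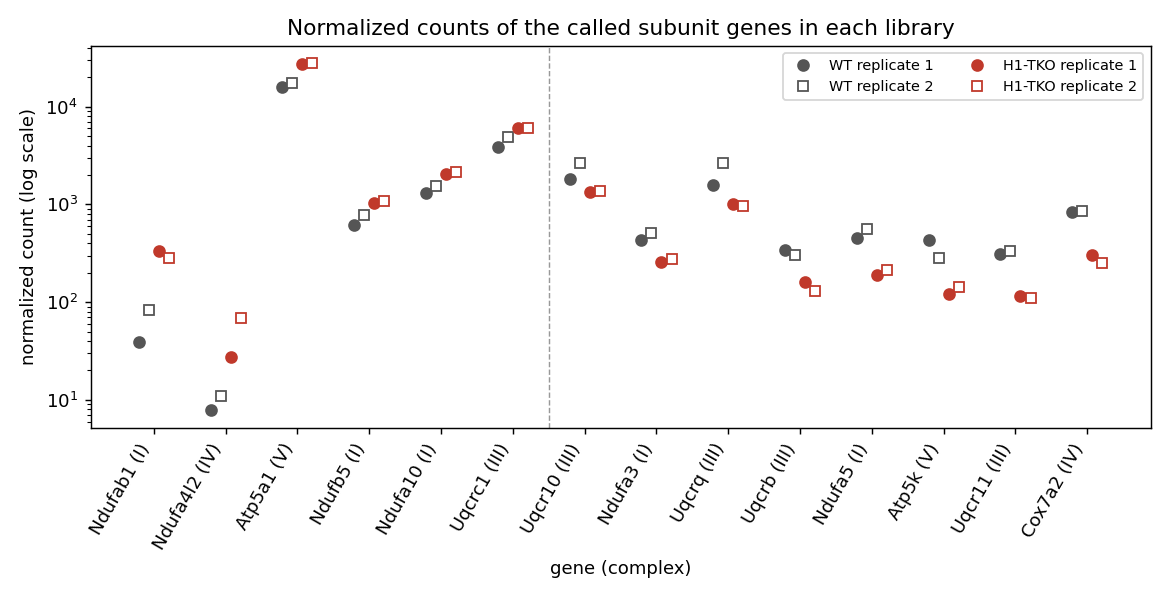
Normalized counts (log scale) of the 14 called subunit genes in each of the 4 libraries, with WT in grey and H1-TKO in red, circles for replicate 1 and squares for replicate 2. Genes left of the dashed line were higher and genes right of it lower in H1-TKO, and in none of the 14 do the genotypes overlap.

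In complex I, which takes up the electrons of NADH, 3 of 29 genes tested were higher and 2 were lower, and the median log2 fold change was -0.03. These shares of 10.3% and 6.9% stood beside 9.84% and 10.7% of all accessions. The largest change was in Ndufab1, the mitochondrial acyl carrier protein, whose gene is located on chromosome 7 (bases 129228917 to 129245400 of NCBIM37). It had 38.8 and 82.9 normalized counts in WT against 334 and 285 in H1-TKO. Every H1-TKO library was thus more than 3 times the higher WT library, with a log2 fold change of 2.42 (SE 0.38, limma adjusted p = 0.00796). Leaving out single libraries gave 1.88 to 2.96. A stretch of 67.5% of its transcript has near-identical sequence elsewhere, so its level is that of the reads that could be placed.

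Ndufb5 and Ndufa10, accessory subunits of the membrane arm, rose by less. Ndufb5 had 619 and 784 in WT and 1036 and 1089 in H1-TKO (log2 fold change 0.61, SE 0.16, limma adjusted p = 0.0404). Its exons overlap those of Mrpl47 on the other strand, which had 458 and 470.1 in WT and 475 and 642 in H1-TKO. Ndufa10 had 1309.6 and 1542 against 2058 and 2122 (log2 fold change 0.56, SE 0.14, limma adjusted p = 0.0296), and lies on chromosome 1, where the median of all 617 accessions tested was 0.50.

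Ndufa5 and Ndufa3 fell. Ndufa5, an accessory subunit of the matrix arm (chromosome 6, bases 24468666 to 24478013), had 458 and 561 in WT and 191 and 213 in H1-TKO, with a log2 fold change of -1.33 (SE 0.20, limma adjusted p = 0.00715). Ndufa3 had 435 and 514 against 259 and 279 (log2 fold change -0.81, SE 0.19, limma adjusted p = 0.0243). Among subunits of the electron path, Ndufv1 and Ndufs7 did not pass the test. Ndufv1, which binds NADH and the flavin, had 1608 and 2011 in WT and 1498 and 1610.4 in H1-TKO. Ndufs7, which holds an iron-sulfur cluster, had 580.3 and 958 against 689.7 and 760.4. The accessory subunits Ndufa9 and Ndufb8 were close to equal, with log2 fold changes of -0.01 (SE 0.15) and -0.06 (SE 0.12).

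Complex II, succinate dehydrogenase, is also an enzyme of the TCA cycle. None of its 4 genes passed the test in either direction by the main limma fit, edgeR or DESeq2, and 1 had an unadjusted limma p under 0.05. Sdhb passed in the limma fit with quantile normalization (log2 fold change 0.50, limma adjusted p = 0.0387). The flavoprotein Sdha had 3283 and 3139 in WT and 2909 and 2927 in H1-TKO (log2 fold change -0.14, SE 0.11), while Sdhb had 1371 and 1328 against 1677 and 1963 (log2 fold change 0.43, SE 0.14, limma adjusted p = 0.0641). The membrane anchors had positive values too, with log2 fold changes of 0.40 (SE 0.18) for Sdhc, which lies on chromosome 1, and 0.25 (SE 0.13) for Sdhd. The median of the 4 genes was 0.33. The genotypes did not overlap in 3 genes that were higher and 1 that was lower, as in 32.2% and 34.2% of all accessions.

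In complex III genes changed in both directions: 1 of 8 was higher and 4 were lower, beside 9.84% and 10.7% of all accessions. The 5 Uqcr genes for small subunits had negative values. Uqcr11, located on chromosome 10 (bases 79865742 to 79869575), had 314 and 332 normalized counts in WT against 117 and 111 in H1-TKO. Its log2 fold change was -1.50 (SE 0.21, limma adjusted p = 0.00633) and ranged from -1.54 to -1.46 as single libraries were left out. Uqcrb, which takes part in ubiquinone binding, had 343 and 304 against 161 and 129.5 (log2 fold change -1.16, SE 0.22, limma adjusted p = 0.0147). Near-identical sequence elsewhere covers 92.1% of the Uqcr11 transcript and 92.9% of that of Uqcrb, so their levels are those of the reads that could be placed.

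Uqcrq had 1570.2 and 2659 in WT and 1005 and 974 in H1-TKO (log2 fold change -1.05, SE 0.23, limma adjusted p = 0.0230). Uqcr10 had 1812 and 2653 against 1341 and 1369 (log2 fold change -0.69, SE 0.19, limma adjusted p = 0.0404). In both the WT libraries were further apart than the H1-TKO libraries, and both lie on chromosome 11, where the median of all 914 accessions tested was -0.37. The fifth small subunit, the hinge protein Uqcrh, had 1395 and 989 against 823 and 927 (log2 fold change -0.43, SE 0.19, limma adjusted p = 0.147).

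The 3 other Uqcr genes had positive values. Uqcrc1, a core protein (chromosome 9, bases 108838661 to 108851685), had 3867 and 4891 in WT and 6059.9 and 6075 in H1-TKO (log2 fold change 0.48, SE 0.14, limma adjusted p = 0.0490). The other core protein Uqcrc2 had 2270.0 and 2172 against 2651 and 2726 (log2 fold change 0.28, SE 0.12, limma adjusted p = 0.130). The Rieske iron-sulfur protein Uqcrfs1 had 1338 and 1758 against 1988 and 2095 (log2 fold change 0.41, SE 0.16, limma adjusted p = 0.106). The genotypes did not overlap in 3 Uqcr genes that were higher and 5 that were lower, beside the 32.2% and 34.2% of all accessions. Cyc1, the cytochrome c1 of this complex, had a log2 fold change of -0.31 (SE 0.13) and Cycs, cytochrome c, of 0.44 (SE 0.30). None of the 3 cytochrome c and c1 genes passed the adjusted threshold by limma, edgeR or DESeq2, and 1 had an unadjusted limma p under 0.05.

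In complex IV, cytochrome c oxidase, 1 of 14 genes tested was higher and 1 was lower, and the median was -0.01. The share of 7.14% in each direction stood beside 9.84% and 10.7% of all accessions. Cox7a2, located on chromosome 9 (bases 79603048 to 79607660) and with the counts given above, had the lowest p of all subunit genes, with a log2 fold change of -1.61 (SE 0.17, limma adjusted p = 0.00324). Ndufa4l2, a paralog of Ndufa4 that is known to be induced by hypoxia, had 7.8 and 10.9 in WT and 27.5 and 68.5 in H1-TKO (log2 fold change 2.12, SE 0.61, limma adjusted p = 0.0486). Its WT mean of 9.3 lay below the filter of 10, so it was tested only through its H1-TKO mean of 48.0. The call of Ndufa4l2 is therefore not independent of the filter. Its log2 fold change was 2.77 without H1-TKO replicate 1 (limma adjusted p = 0.0678) and 1.48 without H1-TKO replicate 2 (0.411). The H1-TKO libraries were more than 2-fold apart, the lowest of the counts is that of 10 reads, and the exons of Shmt2 overlap the gene on the other strand. Ndufa4 itself had 2305 and 2944 against 2094 and 2161 (log2 fold change -0.29, SE 0.15, limma adjusted p = 0.192).

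Cox5a, Cox6b1 and Cox6a1 had small positive values that did not pass the test. Cox5a had 2305 and 2129 normalized counts in WT against 2628 and 2722 in H1-TKO, Cox6b1 had 1686 and 1543 against 1955 and 2062, and Cox6a1 had 2324 and 2672 against 2808 and 3052. Their log2 fold changes were 0.27, 0.32 and 0.23. Cox8a was 2480.3 and 4628 in WT and 3124 and 3392 in H1-TKO, with the WT libraries on both sides of the H1-TKO libraries. Cox7c had the lowest log2 fold change of complex IV after Cox7a2, -1.44, but with 77.6 and 38.2 against 13.2 and 28.4 normalized counts its SE was 0.56 and its limma adjusted p was 0.108.

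In complex V, the ATP synthase, 1 of 12 genes was higher and 1 was lower, and the median was -0.22. The share of 8.33% in each direction stood beside 9.84% and 10.7% of all accessions. Atp5a1, located on chromosome 18 (bases 78012468 to 78021608), was the most abundant gene that changed: 15875 and 17521 normalized counts in WT against 27412 and 27818 in H1-TKO. Its log2 fold change was 0.73 (SE 0.11, limma adjusted p = 0.00727), and 0.66 to 0.80 without single libraries, but with 1 H1-TKO library its adjusted p was 0.141 without H1-TKO replicate 1 and 0.154 without H1-TKO replicate 2. Atp5b, whose product alternates with that of Atp5a1 in the head of the enzyme, had 24686 and 28196 against 25439 and 26154, a log2 fold change of -0.03 (SE 0.12). The ratio of the mean counts in H1-TKO to those in WT was 1.65 for Atp5a1 and 0.976 for Atp5b. The linear ratio of the central stalk subunit Atp5d was 0.902.

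Atp5k, which encodes subunit e of the membrane part, fell from 429 and 282 in WT to 120.1 and 143 in H1-TKO (log2 fold change -1.40, SE 0.27, limma adjusted p = 0.0140). A copy of at least 80% of its transcript lies elsewhere in the genome. Other small subunits had negative log2 fold changes that did not pass the limma test: Atp5j2 had 1651 and 2683 against 1393 and 1359.7 (log2 fold change -0.61, SE 0.22, limma adjusted p = 0.0867, but 0.0327 by DESeq2), Atp5e had 120.3 and 100.4 against 68.3 and 54.8 (log2 fold change -0.83, SE 0.31), and Atp5h on chromosome 11 had 88.4 and 78.5 against 35.3 and 47.4 (log2 fold change -1.01, SE 0.35). Atp5o, the peripheral stalk subunit OSCP, was close to equal at a log2 fold change of 0.03 (SE 0.16).

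**Figure D2:**
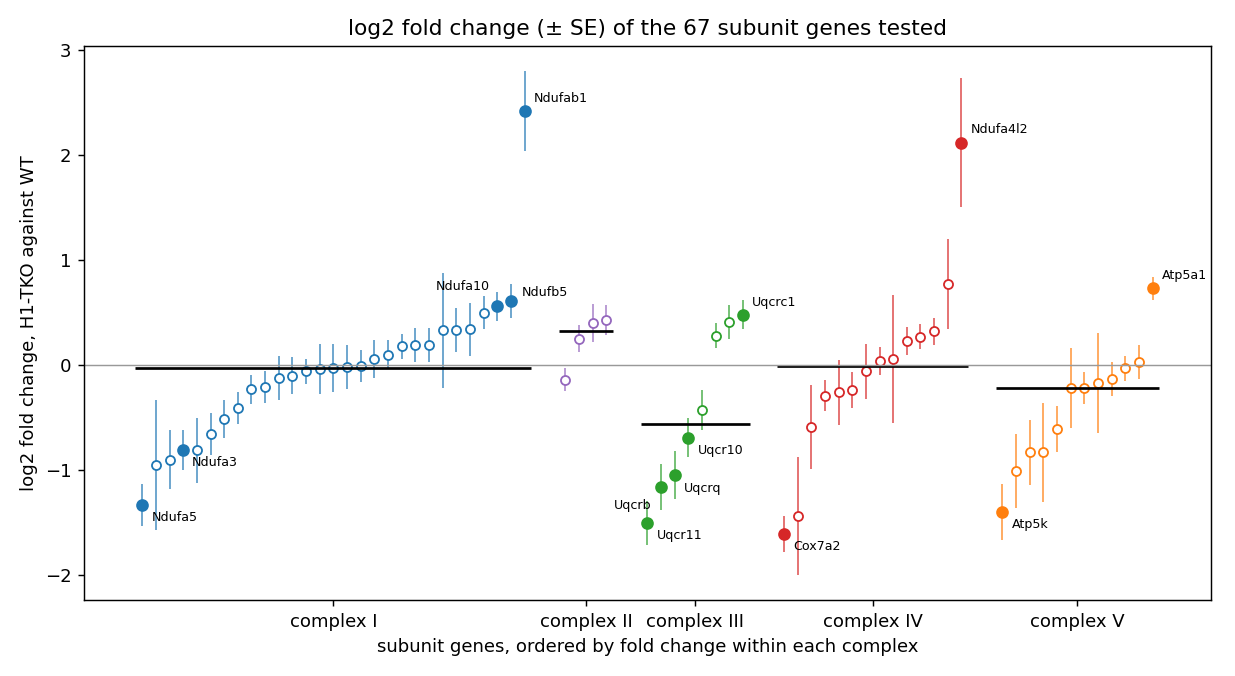
log2 fold change of H1-TKO against WT (y axis, bars are ± SE of the limma fit) for the 67 subunit genes tested, ordered within each complex (x axis); filled and named points have an adjusted p under 0.05 and black lines are medians. The called genes lie at both ends of every complex but II, and the medians run from -0.56 in complex III to 0.33 in complex II.

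The genes that fell had short transcripts, though most subunit genes are short (median 732 bases over the 67 tested). The 8 lower genes had transcripts of 351 to 875 bases, and the 6 higher genes of 960 to 2471 bases. Of the 24 subunit genes under 600 bases, 6 were lower and none was higher by limma's adjusted p (1 at an unadjusted p under 0.05, none by edgeR or DESeq2), and the median log2 fold change was -0.47. Between 600 and 1000 bases it was -0.04 over 21 genes, with 1 higher and 2 lower, and from 1000 bases it was 0.19 over 22 genes, with 5 higher and none lower by limma's adjusted p (1 at an unadjusted p under 0.05, none by edgeR and 1 by DESeq2). Across the 67 genes Spearman's rank correlation coefficient of log2 fold change with length was 0.54, given as a description, since the points share the 4 libraries. It was 0.49 over the 44 genes with no near-identical sequence elsewhere. By complex the coefficient was 0.29 in I (29 genes), 0.74 in III (8), 0.34 in IV (14) and 0.69 in V (12).

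Short transcripts over all accessions had lower values as well. Of all 163 accessions tested with transcripts under 600 bases 18.4% were lower and 4.91% higher, with a median of -0.38. These 163 include the 24 subunit genes and 16 cytosolic ribosomal protein genes. The summed normalized counts of the 163 were 88434 and 111344 in WT and 70536 and 73720 in H1-TKO. Without the subunit genes the median was -0.87 over 17 transcripts of up to 400 bases and -0.27 over 123 of 400 to 600 bases. The 16 cytosolic ribosomal protein genes under 600 bases had a median of -1.15, with 9 lower and none higher by limma (none at an unadjusted p under 0.05 either, nor by edgeR or DESeq2). Longer cytosolic ribosomal protein genes had negative medians too. At 600 to 1000 bases it was -0.42 over 33 genes, with 30.3% lower and 3.03% higher. From 1000 bases it was -0.21 over 15 genes, with 20.0% lower and 13.3% higher. The 4 mitochondrial ribosomal protein genes under 600 bases had a median of -0.28. Among 641 accessions of 600 to 1000 bases 9.36% were higher and as many lower, and among 9655 of 1000 bases and over 10.3% were higher and 10.8% lower, with a median of -0.02 in both classes. The median of 0.19 over the subunit genes of 1000 bases and over thus stood beside -0.02 over all transcripts of that length, and the difference was not tested. Within a genotype, WT replicate 2 exceeded WT replicate 1 by a median of 0.24 for transcripts of 400 to 600 bases and lay below it by 0.15 above 5000 bases, whereas the H1-TKO libraries differed by 0.06 and -0.02. The trend with length thus differed between the WT libraries too.

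With the trend on length taken out of each library, an alternative chosen after the data were seen, 13 subunit genes were called, 6 higher and 7 lower, and 11 of the 14 genes were among them. Ndufa3 (log2 fold change -0.51), Uqcr10 (-0.47) and Uqcrc1 (0.42) no longer passed, and Ndufb3 and Ndufs3 did. Uqcr11 (-1.28), Uqcrb (-1.01), Uqcrq (-0.80), Atp5k (-1.12), Ndufa5 (-1.33) and Cox7a2 (-1.56) remained lower, and Atp5a1 (0.68) and Ndufab1 (2.36) remained higher. Spearman's coefficient with length was 0.38 after this step.

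**Figure D3:**
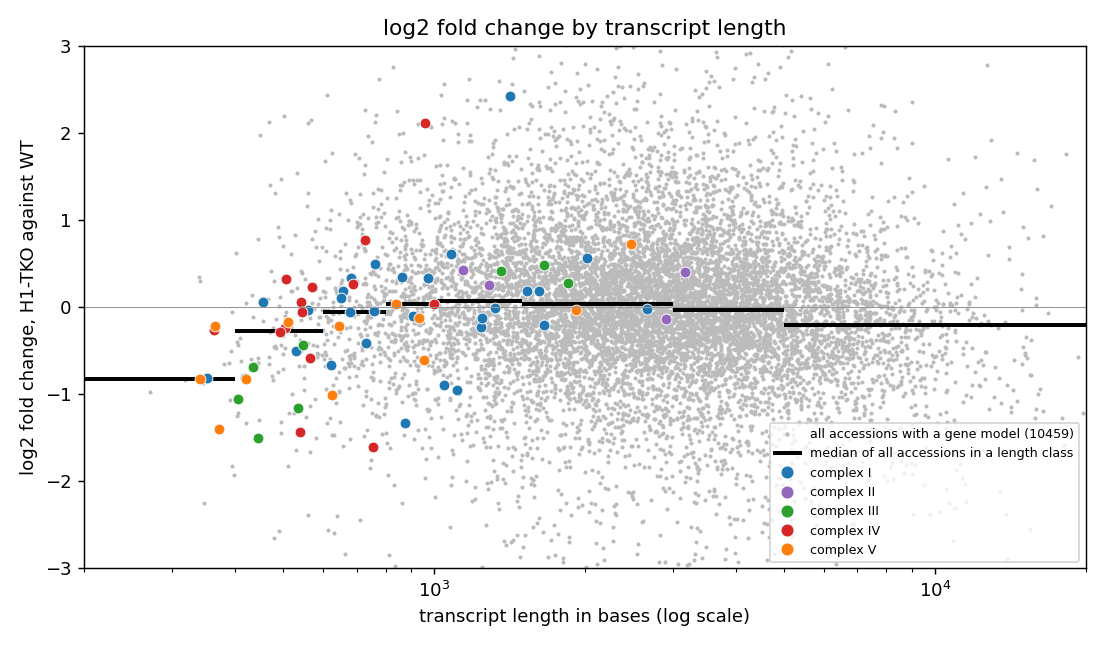
log2 fold change of H1-TKO against WT (y axis, shown from -3 to 3) by transcript length in bases (x axis, log scale) for 10459 accessions with a gene model in grey, of which 129 lie outside the axes, and for the 67 subunit genes by colour of complex. Black bars are medians of all accessions per length class, lowest at -0.83 for the 22 transcripts of up to 400 bases; most subunit genes under 600 bases lie below 0.

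Chromosomes 1, 8 and 11 shifted as a whole between these libraries, with medians over all accessions of 0.50, -0.24 and -0.37, against -0.01 over the other autosomes and X. Of the subunit genes on chromosome 1, Ndufa10 (0.56), Ndufb3 (0.50) and Sdhc (0.40) had positive log2 fold changes, and Cox5b had a negative one (-0.59, SE 0.40). Ndufb3 had 376 and 423 normalized counts in WT against 565 and 567 in H1-TKO, a log2 fold change of 0.50 that equals the median of its chromosome. On chromosome 8 Ndufb7 had 861 and 1160 against 561 and 715 (log2 fold change -0.66, SE 0.20), and Ndufa13 949 and 1050.4 against 822 and 875 (-0.23, SE 0.14). The 57 subunit genes tested on the other chromosomes had a median of -0.06, with 5 higher and 6 lower.

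Genes that work with the complexes were read in the same fit, from lists chosen with earlier results known. Of 38 assembly factors tested 5 were higher (13.2%) and 3 were lower (7.89%), beside 9.84% and 10.7% of all accessions. Their median log2 fold change was -0.12. Oxa1l, which inserts proteins into the inner membrane, had 840.2 and 988 normalized counts in WT against 1367 and 1381 in H1-TKO, and Cox20, a factor of complex IV assembly on chromosome 1, had 438 and 270.5 against 896 and 922. Pet100 fell from 208 and 284 to 84.8 and 89.5, and Cox17, a copper chaperone, from 760.3 and 749 to 474 and 495.

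Of 16 enzymes of the TCA cycle and pyruvate dehydrogenase 2 were higher, Fh1 on chromosome 1 and Sucla2, and 1 was lower, Pdhb, with a median of 0.14. These shares of 12.5% and 6.25% stood beside 9.84% and 10.7% of all accessions. Among 11 regulators and factors of mitochondrial DNA expression Ppargc1b alone was called (9.09%): it had 81.5 and 88.4 in WT and 205 and 162 in H1-TKO (log2 fold change 1.09, SE 0.26, limma adjusted p = 0.0288). Gabpa, Yy1 and Tfam did not pass, with log2 fold changes of 0.32, 0.25 and 0.26, and Nrf1 had several accessions. The 69 mitochondrial ribosomal protein genes had 8 higher and 8 lower and a median of -0.14. Their share of 11.6% in each direction was near that of all accessions.

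Glycolysis was measured on few genes, since 10 of the 19 listed had several accessions. None of 8 tested was higher by limma's adjusted p, edgeR or DESeq2 (1 at an unadjusted limma p under 0.05), and 2 were lower: the glucose transporter Slc2a1, from 6971 and 7377 in WT to 3436 and 3661 in H1-TKO, and Gpi1, from 2148 and 2309 to 1332 and 1433. This lower share of 25.0% stood beside 10.7% of all accessions. The 65 cytosolic ribosomal protein genes had 3 higher and 23 lower and a median of -0.48. Its share of lower genes, 35.4%, was above both the background and the 11.9% of the subunit genes, without a test of the difference.

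H3K27me3, the repressive mark that the study followed, had few listed peaks near the starts of the subunit genes (1 deposited list per genotype, with no replicate check). Within 2 kb of a start, 1 of the 71 genes had a WT peak and none had an H1-TKO peak, where 14.3% and 13.1% of the 15262 protein-coding genes with 1 accession and a start in the annotation had one. The gene was Cox4i2, whose peak had a score of 57.1 (the log10 of the p-value from MACS, times -10), near the lower end of scores. Within 5 kb, Cox7b2 and Ndufa4l2 also had a peak, in H1-TKO only, with scores of 52.7 and 52.9. These 3 genes were among the lowest expressed, with means per kb of 43.8, 24.6 and 29.9.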

How the data were processed

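Per the methods, the authors mapped paired-end poly(A) RNA-seq reads to mm9 with Subread and kept uniquely mapped reads. The methods name featureCounts and DESeq2 for the differential expression. Whether counting used strand is not given in the sources used here. The deposited signal is a normalized count per RefSeq accession, and 100% of values were whole multiples of 1 read (within 0.1 read). H3K27me3 reads were aligned with Bowtie2, and the deposited peak score is the log10 of the p-value from MACS, times -10. Other samples of the series were not analysed here.

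Symbols came from a RefSeq table (GRCm38.p6, names only) for 33650 of 34010 accessions, and positions and transcript lengths from GENCODE M1 (NCBIM37, the same build as mm9). limma 3.58.1 (R 4.3.3) was run with eBayes and a trend on log2(normalized count + 1) over accessions with a mean of at least 10, with Benjamini-Hochberg adjustment over all of them. Fold changes are on this scale, which understates those of low genes. The authors' unit is not a raw count, so count tests (edgeR 4.0.16, DESeq2 1.42.0) served as alternatives only, on recovered reads. The libraries of a genotype were made independently per the methods. Near-identical sequence was found with BLAST 2.17.0 (at least 95% identity over 100 bases). The limma step was tested on simulated data.

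The subunit genes and the lists were chosen with earlier results of these data known. Named are called genes, the highest and lowest per kb in each complex, paralog pairs and genes on chromosomes 1, 8 and 11; further subunit genes and list members were named after their values were seen. An item under this rule is not reported here. Same-numbered libraries did not deviate together (correlation 0.011), so replicate numbers were not taken as pairs.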

Additional observations from a re-analysis of the deposited data

How the results depend on the processing

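With 2 libraries per genotype, the number of subunit genes called (14) depended on single libraries and on the filter: it ranged from 4 to 40 as each was left out in turn, and the median log2 fold change (-0.06) from -0.20 to 0.06. Cox8a, not called with all libraries, had a log2 fold change of 0.39 (limma adjusted p = 3.33e-06) without WT replicate 2 and -0.51 without WT replicate 1, against -0.06. These fits take the spread from the other genotype alone, so the lone library is assumed to vary like that pair, and the WT libraries of Cox8a lie on both sides of the H1-TKO libraries. Without a filter on low values limma called 0 subunit genes (23 at an unadjusted p under 0.05) and 76 of all 34010 accessions, where edgeR and DESeq2 on the filtered reads called 13 and 17. Pseudocounts of 0.1 and 10, a mean of at least 100, TMM scaling, quantile normalization, leaving out chromosomes 1, 8, 11 and Y, and the length trend removed (added after the data were seen) gave 10 to 14. In the fit with a replicate block, which pairs libraries that share only a number (correlation 0.011), 18 subunit genes were called, all 14 among them, at the same median of -0.06. Uqcrc1 was not called by edgeR (adjusted p = 0.0526) or with a pseudocount of 0.1, Ndufa4l2 not with a pseudocount of 0.1, quantile normalization or without chromosomes 1, 8, 11 and Y (adjusted p = 0.0507), and Uqcr10 not with quantile normalization (0.0535). DESeq2 also called Atp5j2, Ndufb7 and Ndufs3, and limma with quantile normalization also called Sdhb (adjusted p = 0.0387). For H3K27me3, 2 subunit genes had an H1-TKO peak within 5 kb, and 0 had a WT peak with a score of at least 100.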
